A study of Homo sapiens with 5 samples.

Results

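The genes described here are 7 cancer-testis genes of the X chromosome: MAGEA1 and MAGEB2 of the MAGE family, SPANXA1 and SPANXB1 of the SPANX family, and VCX, VCX3A and VCX3B of the VCX family. They were measured by 9 probes of the 19105 tested, which stand for 7 of 11041 genes, and all 9 passed the filter on detection (a detection p-value under 0.05 on 2 or more of 5 arrays). The MAGEA1 probe ILMN_2181593 and the SPANXA1 probe were detected on only 1 control array each, so they passed through the knockdown arrays. The genes were selected on their measured difference between the knockdown and control arrays, so their levels and differences are given as a description and carry no test.

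Cancer-testis genes are normally transcribed in male germ cells and silent in other adult tissues, where methylated DNA and repressive histone marks at their promoters keep them off. Many of them lie on the X chromosome in families of recent gene copies, and tumour lines often transcribe some of them again. MAGE proteins share a domain through which they bind ubiquitin ligases, SPANX proteins are found in the nuclear envelope of sperm, and VCX proteins are small, highly charged proteins of germ cells.

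The samples were K562 cells, an established line from a chronic myeloid leukaemia with erythroid features, carrying a stable Tet-on construct that expresses a short hairpin RNA (shRNA) under doxycycline. In 3 samples the hairpin was directed against JMJD1B, a histone H3 lysine demethylase now named KDM3B, and in 2 samples it was a control hairpin. Cells of both groups were treated with doxycycline at 1 µg/ml over 48 h, and the total RNA was read on Illumina bead arrays as signal intensity. The comparison of the groups asks which genes depend on JMJD1B. The labels do not give the number of hairpins or clones behind each group, nor whether replicates were separate cultures. An effect of the knockdown and a difference between stable lines therefore cannot be told apart, and p-values measure only the spread between these samples, which may be technical. JMJD1B itself was not analysed here.

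Levels below are normalized log2(signal + 16), and differences are knockdown minus control on that scale ± the standard error of the linear model (n = 3 and 2). Signals are the deposited intensities before normalization. Arrays had median signals of 455.6 to 498.6 over the 19144 probes with sample names, of which 18230 to 18596 were detected per array. The 9 markers of K562 that were measured were detected on all 5 arrays, with summed normalized signals of 188085 to 192306 in the knockdown and 196156 to 201603 in the control. None of 6 germ cell markers (DDX4, DAZL, PRM1, PRM2, SYCP1 and STRA8) was among the measured genes. The monocyte markers CD14 and LYZ summed to 580 to 615 in the knockdown and 651 to 722 in the control, and their part in the results was not tested. The RNA comes from whole cultures, so a change in the number of cells that express a gene and a change in RNA per cell cannot be told apart.

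Among the 7 selected genes, those of the MAGE and SPANX families were higher in the knockdown and those of the VCX family lower. Other measured members of the MAGE and SPANX families did not all follow. On every knockdown array, 5 probes of the MAGE and SPANX genes were above both control arrays, and 3 probes of the VCX genes were below them. Over all tested probes, 17.6% had the knockdown above the control on every array and 20.2% had it below. Since the choice of genes used this contrast, nothing is read from these counts. The remaining probe, the dimmer of 2 for VCX3A, overlapped between the groups.

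**Figure D1:**
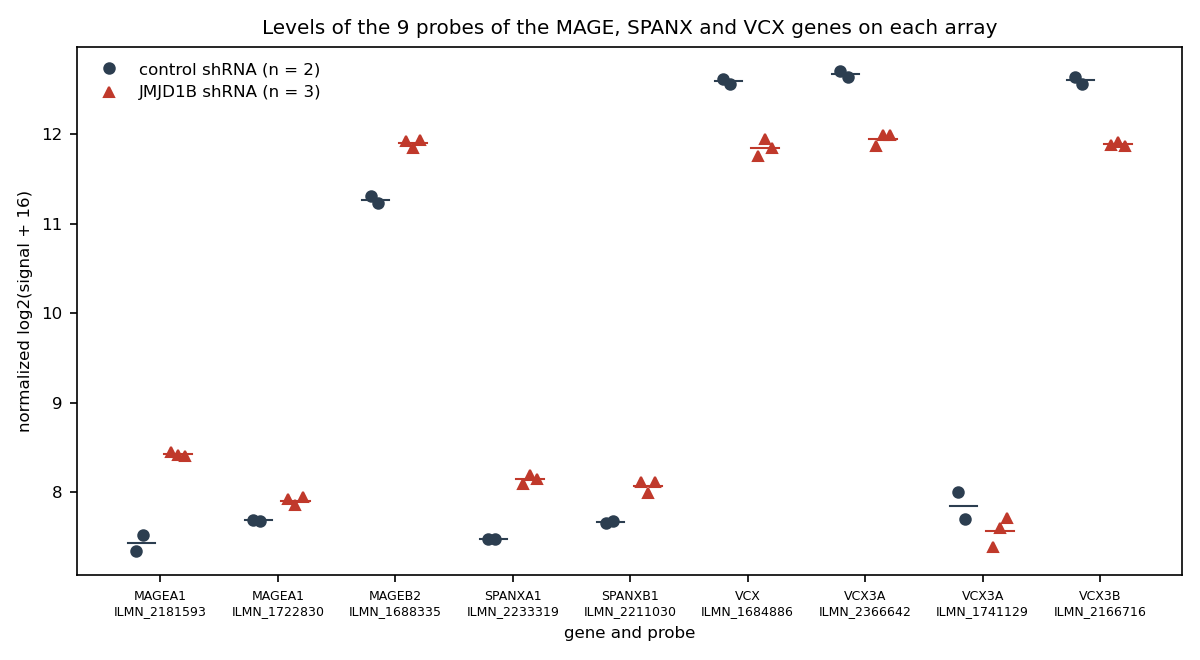
Normalized log2(signal + 16) of the 9 probes on each array, with control arrays as circles (n = 2), knockdown arrays as triangles (n = 3) and group means as short lines. The 5 MAGE and SPANX probes are higher in the knockdown, and the 3 brighter VCX probes are lower. Heights of different probes are not comparable with each other.

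MAGEA1 encodes the first member of the MAGE family, an antigen known from melanoma. Its brighter probe by the mean over the 5 arrays, ILMN_2181593, had signals of 355.3, 325.3 and 318.5 in the knockdown and of 142.3 and 159.4 in the control. In the control it was the dimmer of the 2, so its choice to represent the gene rests on the knockdown arrays, where it is high. Every knockdown array detected this probe, but only 1 of the 2 control arrays did, so that the control level is close to the background of the arrays (a median signal of 124 over probes detected on no array). The groups did not overlap. The difference was 0.99 ± 0.07, a 1.99-fold higher level, background included. With that background subtracted it was 2.72 ± 0.29 on the log2 scale, a size that rests in part on a control array where the probe was not detected. The second probe, ILMN_1722830, read 240.1, 216.3 and 228.8 in the knockdown against 184.8 and 181.3 in the control, was detected on all 5 arrays and differed by 0.22 ± 0.06. Both MAGEA1 probes were thus higher on every knockdown array, by unequal amounts.

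MAGEB2 is a MAGE gene of the X short arm that is transcribed in testis and in tumours. Of the 5 MAGE and SPANX probes its probe ILMN_1688335 was the one least touched by background: its signals were 4226.9, 3654.3 and 3880.6 in the knockdown and 2426.3 and 2341.9 in the control. The normalized level was 11.90 ± 0.05 (SD, n = 3) against 11.27 ± 0.06 (SD, n = 2), and the difference of 0.63 ± 0.06 is a 1.55-fold higher level. The groups did not overlap. Subtracting the background gave 0.66 ± 0.07.

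SPANXA1 and SPANXB1 are near-identical copies in a cluster on the X long arm. SPANXA1 (ILMN_2233319) had signals of 270.5, 278.9 and 267.2 in the knockdown and of 156.2 and 153.6 in the control, where 1 of the 2 arrays detected it. SPANXB1 (ILMN_2211030) had 276.1, 240.6 and 258.4 against 179.6 and 181.7, with detection on all 5 arrays. For both genes every knockdown array was above both control arrays. The differences were 0.67 ± 0.06 and 0.41 ± 0.06, and with the background subtracted 1.95 ± 0.09 and 1.03 ± 0.11. The first of these sizes also rests on a control array without detection. Because the copies are so alike, whether these 2 probes read different transcripts was not tested, and they are not independent measurements.

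Promoter sequences of 6 of the 7 genes were taken from RefSeq (GRCh38.p14), as 250 bases before to 50 after the annotated start, 5′ to 3′ on the strand of the gene. They are shown because methylation of CpG sites is a known control of such promoters, and CG dinucleotides are in capitals. The window of MAGEB2 is chrX:30215313-30215612 (plus strand), that of SPANXA1 chrX:141584689-141584988 (minus strand) and that of SPANXB1 chrX:141002344-141002643 (plus strand).
MAGEB2: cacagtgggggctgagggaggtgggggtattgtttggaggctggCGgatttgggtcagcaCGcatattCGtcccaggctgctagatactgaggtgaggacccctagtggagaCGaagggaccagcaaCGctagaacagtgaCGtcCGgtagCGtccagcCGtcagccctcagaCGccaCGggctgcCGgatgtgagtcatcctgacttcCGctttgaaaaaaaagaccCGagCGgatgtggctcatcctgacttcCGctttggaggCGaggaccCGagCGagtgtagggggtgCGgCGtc
SPANXA1: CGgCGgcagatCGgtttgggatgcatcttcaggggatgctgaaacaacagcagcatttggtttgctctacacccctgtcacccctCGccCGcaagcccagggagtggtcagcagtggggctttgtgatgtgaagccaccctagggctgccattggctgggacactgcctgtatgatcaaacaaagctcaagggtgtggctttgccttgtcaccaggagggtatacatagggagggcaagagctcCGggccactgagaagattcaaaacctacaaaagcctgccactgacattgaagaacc
SPANXB1: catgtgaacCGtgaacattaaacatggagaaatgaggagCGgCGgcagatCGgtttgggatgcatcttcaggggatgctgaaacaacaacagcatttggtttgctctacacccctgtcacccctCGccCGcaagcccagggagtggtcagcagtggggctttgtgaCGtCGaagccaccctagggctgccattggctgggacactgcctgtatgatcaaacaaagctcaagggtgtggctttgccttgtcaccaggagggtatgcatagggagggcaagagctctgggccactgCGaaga

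MAGEB2 has 21 CpG sites in its window, more than 60.5% of the 35116 windows in the table, whose median is 14. SPANXA1 has 6 and SPANXB1 has 9, above 33.7% and 41.6% of all windows. Aligned with free ends, the SPANXA1 and SPANXB1 windows overlap by 261 columns, of which 255 are identical (97.7%).

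VCX, VCX3A and VCX3B are copies near the end of the X short arm. The probe of VCX (ILMN_1684886) read 3771.3, 3915.2 and 3667.9 in the knockdown and 5894.6 and 6012.0 in the control, a difference of -0.74 ± 0.07. For VCX3B (ILMN_2166716) the signals were 4104.7, 3831.1 and 3711.6 against 5989.0 and 6007.1, with a difference of -0.72 ± 0.06. The brighter probe of VCX3A (ILMN_2366642) gave 4070.0, 4057.9 and 3990.3 against 6276.8 and 6273.9, a difference of -0.73 ± 0.06. These are levels lower by 1.68-fold, 1.65-fold and 1.65-fold in the knockdown, with no overlap between the groups.

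The 3 bright VCX probes followed each other closely over the 5 arrays. After each probe was centred on its own mean, their profiles differed by a root mean square of 0.03 to 0.05 on the log2 scale, while those of SPANXA1 and SPANXB1 differed by 0.15 and those of the MAGEA1 probes by 0.39. Closeness was not particular to copies, since MAGEB2 and SPANXA1, of different families, differed by 0.07. The genes are near-identical copies, and whether the probes tell their transcripts apart was not tested, so they are not counted as independent. The dimmer probe of VCX3A (ILMN_1741129) had signals of 159.0, 182.4 and 192.7 in the knockdown and of 232.2 and 184.5 in the control, was detected on 2 arrays of each group and differed by -0.28 ± 0.11.

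For the VCX genes the windows come from the same RefSeq table. The VCX window is chrX:7842921-7843220 (plus strand), the VCX3A window chrX:6535069-6535368 (minus strand) and the VCX3B window chrX:8464580-8464879 (plus strand), again with CG in capitals.
VCX: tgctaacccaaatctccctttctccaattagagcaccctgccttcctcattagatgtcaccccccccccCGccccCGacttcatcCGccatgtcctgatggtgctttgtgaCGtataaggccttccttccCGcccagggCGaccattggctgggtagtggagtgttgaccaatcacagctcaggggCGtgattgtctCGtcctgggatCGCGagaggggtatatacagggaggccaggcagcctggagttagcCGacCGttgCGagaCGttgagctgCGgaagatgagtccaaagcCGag
VCX3A: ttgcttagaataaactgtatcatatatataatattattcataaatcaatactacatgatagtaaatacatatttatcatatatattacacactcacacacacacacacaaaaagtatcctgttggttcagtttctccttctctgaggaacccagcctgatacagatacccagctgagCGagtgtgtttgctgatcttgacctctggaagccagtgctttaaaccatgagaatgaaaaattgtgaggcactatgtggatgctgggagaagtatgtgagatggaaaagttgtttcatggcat
VCX3B: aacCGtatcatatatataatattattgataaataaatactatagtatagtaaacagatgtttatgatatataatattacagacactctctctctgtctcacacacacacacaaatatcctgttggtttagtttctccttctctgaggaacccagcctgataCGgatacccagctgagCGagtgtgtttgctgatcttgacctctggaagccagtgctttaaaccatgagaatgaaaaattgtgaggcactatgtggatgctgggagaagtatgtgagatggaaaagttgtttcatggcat

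VCX3A and VCX3B have 1 and 3 CpG sites in their windows, fewer than most windows (only 3.96% and 18.2% have fewer). Of 303 aligned columns, 271 are identical (89.4%). The VCX window has 16 CpG sites and, aligned with free ends, shares an overlap of only 1 column with the window of VCX3A. The start used for the VCX window lies inside the annotated VCX gene, downstream of its first base, so this window is not set against those of the other copies. The windows of the copies thus mark different places. Which start each copy uses in these cells was not tested. Letters of 5 motifs were searched on both strands. The ETS motif was first searched as CCGGAAG, which matched none of the 6 windows and is present in 10.3% of all windows. After the sequences had been seen, its inner part CGGAAG and the CCAAT box were added, so the matches of these 2 were chosen with the sequences in view. CGGAAG lies within CCGGAAG, and both hold a CpG. It stood 2 times in the MAGEB2 window and 1 time in the VCX window, and is present in 19.5% of all windows. CCAAT stood 3 times in VCX and 1 time each in SPANXA1 and SPANXB1 (34.6% of windows hold it), GGGCGG, which also holds a CpG, 2 times in VCX (45.0%), and CACGTG in none of the 6 (7.26%). A match is only a run of letters and no measured binding.

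Naming of the probes affects every gene described here, and it changes the direction for the VCX genes. Of the 19144 rows with sample names only 47 carry the identifier that their 5 signals have in the larger deposited table, and the larger table's identifiers were used here. Beside the printed identifier of the bright VCX3A probe stand the values of the MAGEA1 probe ILMN_2181593, which differ by 0.99, and beside the identifier of VCX stand those of SAMSN1, which differ by 1.06. A reading by the printed identifiers would therefore turn the 3 bright VCX probes from lower to higher, while the dimmer VCX3A probe would stay lower (-0.31, with the values of NINJ1). The MAGE and SPANX probes would stay higher, but with the values of other genes. These are KYNU (0.74) and SIVA1 (0.25) for MAGEA1, RNU11 (0.53) for MAGEB2, EVI2B (0.61) for SPANXA1 and ACTB (0.44) for SPANXB1. A check of the naming by families of near-identical genes, chosen after the mismatch was known, gave these values. Under the larger table's identifiers the 3 bright VCX probes had mean signals of 4652 to 4934, and under the printed ones 260 to 1004. These 3 were picked as bright under the larger table's identifiers, so their values cannot check the naming. Other VCX probes were dim under the same identifiers. The dimmer VCX3A probe read 159.0 to 232.2 over the arrays, and the VCX2 probes read 190.9 to 355.7. The 12 GAGE probes had mean signals of 1558 to 29349 with a median of 17995, against 167 to 4057 with a median of 456.

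Other members of these families were set beside the 7 genes, with tests over all 19105 probes, of which 2.35% rose and 2.72% fell (limma with Benjamini-Hochberg adjustment). Of 9 other type I MAGE genes measured, the subfamilies restricted to testis and tumours, 1 rose and 1 fell, and the median difference was 0.01 (over all 11041 genes 283 rose and 409 fell, 2.56% and 3.7%, with a median of -0.01). An unadjusted p under 0.05 was reached by 4 of these 9 genes and by 2647 of all genes (24.0%), against which the unadjusted counts below are to be read. MAGEA9B, which has a near-identical copy in MAGEA9, rose from signals of 175.1 and 194.6 in the control to 296.4, 270.0 and 271.4 in the knockdown, by 0.48 ± 0.07 (adjusted p = 0.0032). MAGEC2, a partner of the ubiquitin ligase TRIM28, fell by 0.28 ± 0.06 (adjusted p = 0.036), from 3552.9 and 3567.8 to 3210.0, 2931.2 and 3184.3, and its second probe was at -0.17 (adjusted p = 0.15). The MAGEA9B call was lost with the background subtracted (adjusted p = 0.056 in limma). That of MAGEC2 was lost under 7 of 15 alternatives, among them leaving out knockdown replicate 1 or 2 or control replicate 1 or 2 (adjusted p = 0.1, 0.13, 0.15 and 0.099).

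MAGEB1, the measured gene next to MAGEB2 on the chromosome, was above the control on every knockdown array with both probes. Its probe ILMN_2413231 rose by 0.41 ± 0.07 (adjusted p = 0.0092 in limma) and ILMN_2413236, which represents the gene because it is brighter, was at 0.38 ± 0.10 (adjusted p = 0.062). The other type I genes were close to 0 or lower: MAGEA3 at 0.01, MAGEA12 at 0.04, MAGEA6 at 0.11, MAGEB6 at -0.01, MAGEC1 at -0.04 and MAGEA8 at -0.21. MAGEA3, MAGEA6 and MAGEA12 are close relatives whose probes may cross-read.

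VCX2, the fourth VCX copy of the X chromosome, was measured by 4 probes, all dimmer in signal than 360. Probes ILMN_1728657 and ILMN_2378845 fell by 0.45 ± 0.09 and 0.38 ± 0.09 (adjusted p = 0.018 and 0.036 in limma), whereas ILMN_1706028 and ILMN_1651789 were at -0.22 and -0.13 (adjusted p = 0.058 and 0.38). SPANXN3, a more distant SPANX gene, was at -0.07 ± 0.06 (adjusted p = 0.58). With 1 probe per gene, 0 of these 2 relatives passed in limma (1 at an unadjusted p under 0.05, which 24.0% of all genes reached).

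The broadly expressed type II MAGE genes had 0 of 9 past the threshold in limma (2, or 22.2%, at an unadjusted p under 0.05) and a median of -0.03. MAGED1, an adaptor of cell death signalling, and MAGEF1 had the smallest p-values, at -0.24 ± 0.06 and -0.21 ± 0.08 (adjusted p = 0.062 and 0.19).

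**Figure D2:**
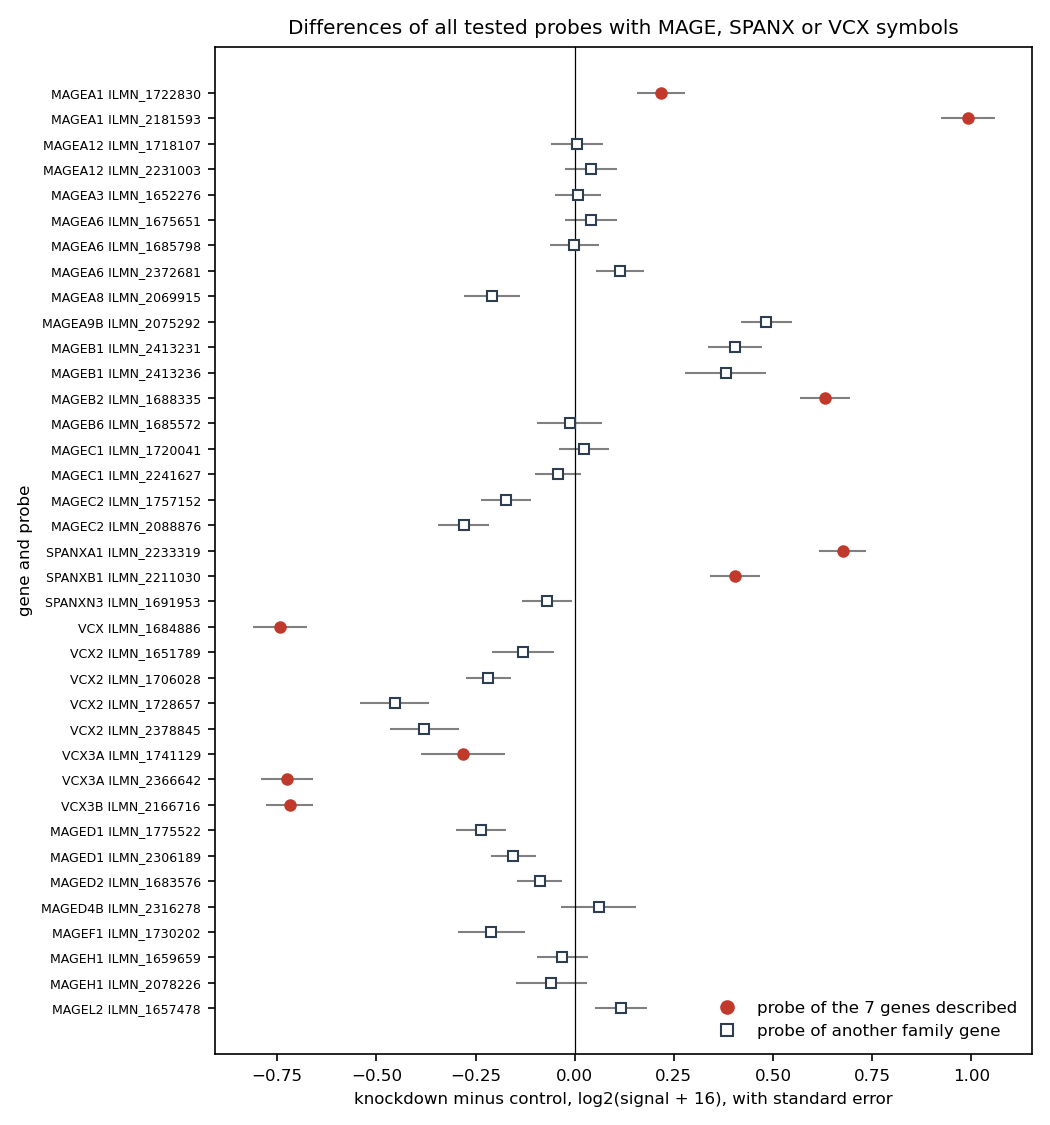
Difference of knockdown minus control on the log2(signal + 16) scale for every tested probe with a MAGE, SPANX or VCX symbol, with the moderated standard error as bars (n = 3 and 2). Filled circles are the probes of the 7 genes, open squares those of their relatives. MAGEA9B and both MAGEB1 probes lie on the side of MAGEA1 and MAGEB2, and all 4 VCX2 probes lie below 0 with the VCX genes. Other relatives do not follow: both MAGEC2 probes, MAGEA8 and SPANXN3 lie below 0, and MAGEA3, MAGEA12, MAGEB6 and MAGEC1 lie near 0.

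Cancer-testis genes outside these families mostly did not pass the test. Among 27 other X-linked genes of this kind 2 rose and 0 fell (7.41% and 0%; 5, or 18.5%, passed at an unadjusted p under 0.05), with a median of -0.01. IL13RA2, a decoy receptor of interleukin signalling, rose by 0.46 ± 0.06 (adjusted p = 0.0033) and the homeobox gene RHOXF2 by 0.38 ± 0.08 (adjusted p = 0.029). RHOXF2B, a near-identical copy of the latter, was at 0.25 (adjusted p = 0.29). The call of RHOXF2 was lost with the background subtracted (adjusted p = 0.16 in limma) and when knockdown replicate 2, knockdown replicate 3 or control replicate 2 was left out (adjusted p = 0.11, 0.074 and 0.16).

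The GAGE genes, a family of near-identical tumour antigens, make up 11 of the 27 genes just counted. Whether their probes tell the copies apart was not tested, so they are not counted as independent. They gave 0 of 11 past the threshold in limma (1 at an unadjusted p under 0.05, which 24.0% of all genes reached). Their differences ran from -0.17 to 0.02.

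Of 24 autosomal cancer-testis and germline genes, 1 rose and 1 fell (4.17% each), with a median of 0.03. In limma 8 of these 24 (33.3%) had an unadjusted p under 0.05. SPAG6, a protein of the sperm tail, rose by 0.66 ± 0.07 (adjusted p = 0.00039), from 233.1 and 253.0 in the control to 412.0, 415.8 and 405.5, though its second probe was at 0.08 (adjusted p = 0.53). ZNF165, a zinc finger gene of testis, fell by 0.63 ± 0.08 (adjusted p = 0.0016), from 777.3 and 857.7 to 534.2, 588.4 and 529.7. With the background subtracted the calls of ZNF165 and IL13RA2 were lost (adjusted p = 0.064 and 0.054), while that of SPAG6 held (adjusted p = 0.03). PRAME, an antigen first found in melanoma, was at -0.04 ± 0.06 (adjusted p = 0.76). Over the whole wider list of 62 measured genes, 4 rose and 2 fell (6.45% and 3.23%), and the median was 0.00, against 2.56% and 3.7% of all genes. An unadjusted p under 0.05 in limma was reached by 18 of these 62 genes (29.0%), against 24.0% of all genes.

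Genes that act on such promoters or with MAGE and VCX proteins mostly did not pass the test. Of 24 regulators, among them the DNA methyltransferases DNMT1 and DNMT3B and the repressors E2F6 and MGA, 0 passed in limma with 1 probe per gene (4, or 16.7%, at an unadjusted p under 0.05), with ELK1 at -0.18 and ETS1 at 0.20 having the smallest p-values (adjusted p = 0.11 and 0.17). A second ETS1 probe, ILMN_2122103, rose by 0.33 ± 0.08 (adjusted p = 0.038 in limma), and it was the only one of 39 probes of these regulators to pass. Of 12 protein partners, TRIM69, a ubiquitin ligase gene, was lower (-0.28, adjusted p = 0.041). It was not detected on any knockdown array, so that it was at least 1.09-fold lower, and the call was lost under 10 of 14 alternatives, including each of the 5 that left out 1 array (adjusted p of 0.053 to 0.19). SNW1, a transcriptional coregulator that binds MAGEA1, was at 0.09 (adjusted p = 0.42 in limma). DCP2, a decapping enzyme that binds VCX proteins, was at -0.06 (adjusted p = 0.64 in limma).

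**Figure D3:**
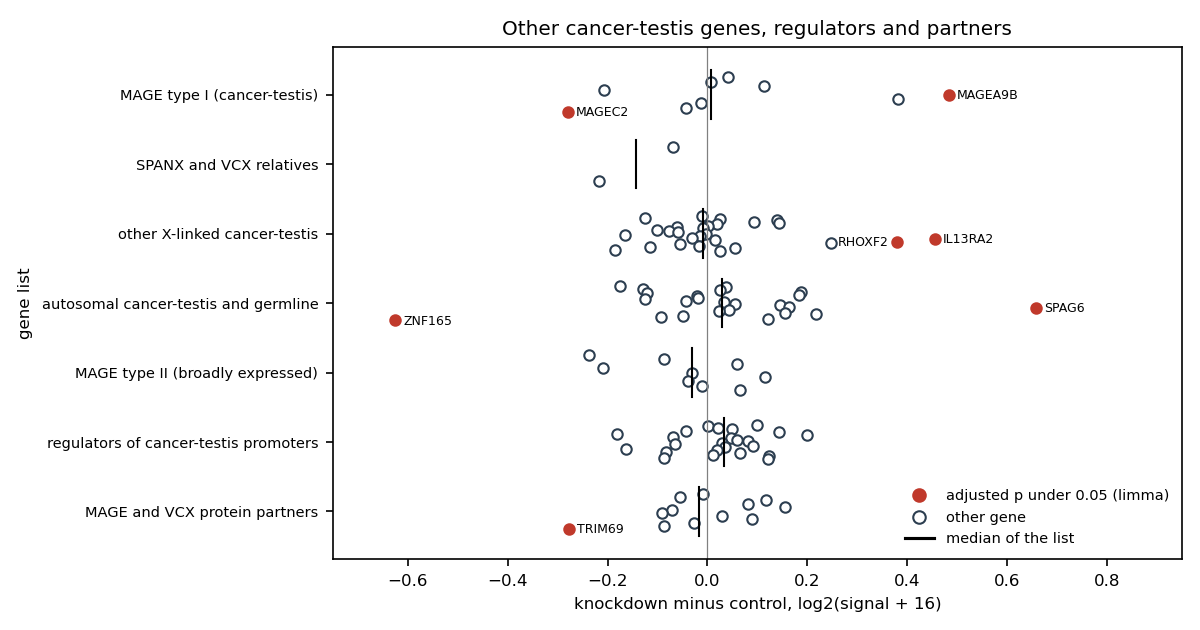
Difference of knockdown minus control on the log2(signal + 16) scale for 1 probe per gene, by list, with genes past an adjusted p of 0.05 in limma as filled points and the median of each list as a vertical line. Filled points are MAGEA9B, MAGEC2, IL13RA2, RHOXF2, SPAG6, ZNF165 and TRIM69. Most genes lie near 0.

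On the X chromosome as a whole, 406 genes other than the 7 were tested, of which 13 rose and 9 fell (3.2% and 2.22%), with a median of -0.01. WAS, an actin regulator of blood cells, rose by 1.23, and ALAS2, which starts haem synthesis in red cell precursors, fell by 0.51. The calls with the next smallest p-values were RBMX and the cancer-testis genes MAGEA9B and IL13RA2 among those higher, and SLC25A43, TCEAL4 and XK among those lower (-0.41, -0.32 and -0.30). Measured neighbours of the VCX genes from outside that family had small differences. PRKX, a protein kinase, was at -0.07, and PUDP, a phosphatase that lies between VCX3A and VCX, at 0.03. TBL1X, a corepressor subunit, was at -0.04 (adjusted p = 0.52, 0.81 and 0.79 in limma for these 3). VCX2 stands between VCX and VCX3B in this order and was at -0.22 (adjusted p = 0.058 in limma), with other probes of it lower still. Neighbours here are the nearest measured genes by rank along the chromosome, whatever the distance. Next to the SPANX genes in this order, the RNA-binding protein gene RBMX rose by 0.45 ± 0.06 (adjusted p = 0.0026). RBMX starts at base 136869192 and SPANXB1 at base 141002594, so their ranks do not make them close. MAGEC1 on the other side of the SPANX genes was at -0.04. IL1RAPL1 before MAGEB2 was at 0.14, and PNMA6A and ZNF275 on either side of MAGEA1 were at -0.05 and 0.20 (adjusted p = 0.23, 0.66 and 0.13).

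**Figure D4:**
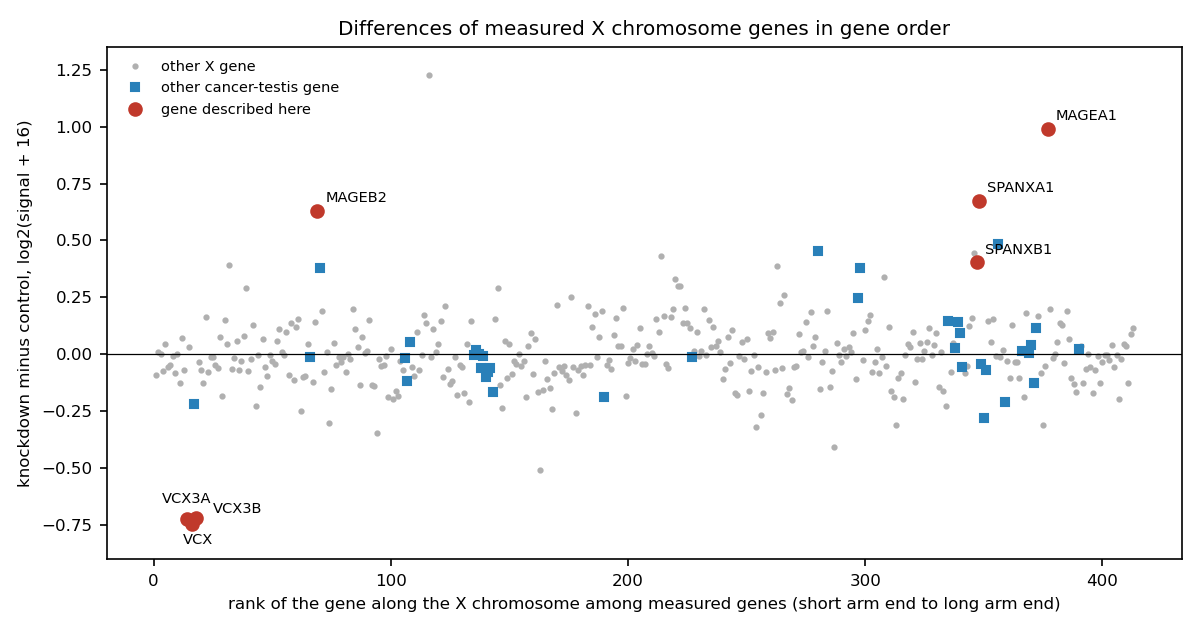
Difference of knockdown minus control on the log2(signal + 16) scale for measured X chromosome genes, 1 probe each, by their rank along the chromosome. Circles are the 7 genes, squares other cancer-testis genes and dots all other genes. MAGEA1 is shown by probe ILMN_2181593, and its other probe was at 0.22. The 3 VCX genes lie together at about -0.73. Their measured neighbours outside the VCX family are near 0, while VCX2, between VCX and VCX3B, is at -0.22. The point at 1.23 is WAS.

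Genes with the most similar profile over the 5 arrays were sought by the root mean square difference between centred log2 levels, with members left out. Those nearest to MAGEA1, taken by its probe ILMN_2181593, were GRB14 (0.04), TCN1 (0.05) and SAMSN1 (0.05), where the median over all genes was 0.50. For MAGEB2 they were EVI2B, RNF182 and GBP5 (0.02, 0.02 and 0.04), and for SPANXA1 MS4A3, SPAG6 and FSTL5 (0.03, 0.04 and 0.04). VCX was followed most closely by NDRG4, CDR2L and RBPMS2 (0.05, 0.07 and 0.08), which fell by 0.74, 0.66 and 0.76. None of these 12 genes lies on the X chromosome, but only 406 of 11041 measured genes besides the members do, so nothing is read from this. With 5 arrays in 2 groups, this likeness mostly restates the difference between the groups.

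The differences of the 7 genes kept their direction under every alternative that used the gene's own probe. The range was 0.87 to 2.72 for the brighter MAGEA1 probe, 0.59 to 0.71 for MAGEB2, 0.58 to 1.95 for SPANXA1 and 0.35 to 1.03 for SPANXB1. It was -0.79 to -0.65 for VCX, -0.76 to -0.63 for the brighter VCX3A probe and -0.75 to -0.63 for VCX3B. The second probes ran from 0.19 to 0.60 for MAGEA1 and from -0.93 to -0.13 for VCX3A. The upper ends for MAGEA1, SPANXA1 and SPANXB1 come from subtracting the background, which moved the bright MAGEB2 and VCX probes little.

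**Figure D5:**
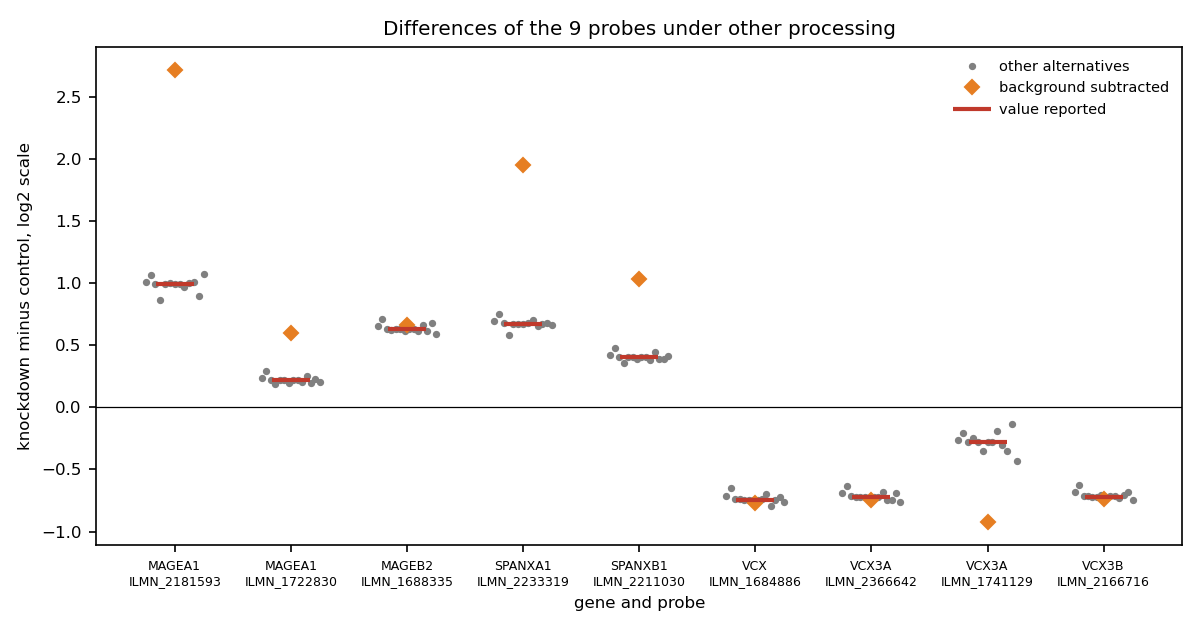
Difference of knockdown minus control on the log2 scale for the 9 probes as reported (bars), with the pooled background subtracted (diamonds) and under each other alternative (dots). The dim MAGEA1 and SPANX probes have larger differences once the background is subtracted, and no probe crosses 0.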

How the data were processed

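Expression was measured on Illumina bead arrays in 3 knockdown and 2 control samples of K562 cells. Per the submitters' processing notes GenomeStudio 2009.2 was used. Its settings were not stated in the labels. The authors deposited probe signal intensity on a linear scale, neither background corrected nor normalized (lowest signal 109.6), and, per the file headers, a detection p-value for each probe of a larger table of 47321 probes. The 5 signal columns of that table match no sample name, so they served only as a key to probe identity and, pooled, for the background. Rows were joined by their 5 signals, and symbols came from the platform annotation (14581 probes with 1 symbol), updated through RefSeq.

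Signals plus 16 were log2 transformed and quantile normalized. The 19105 probes with a detection p-value under 0.05 on at least 2 arrays were fitted with limma 3.58.1 (R 4.3.3, group only). The fit had 3 residual degrees of freedom, and 10.08 in total after the variances were moderated over all probes. Benjamini-Hochberg adjustment ran over all probes at a threshold of 0.05. The script was tested on simulated data. A gene is represented by its brightest probe. The number of arrays limits the precision (median standard error 0.07). The members, lists and tests were chosen with earlier results of these data known. Named are all members and relatives, up to 4 called genes per list by p or else the 2 with the smallest p, nearest X neighbours, up to 4 X genes per direction, and the 3 most similar profiles. GAGE, PRAME, RHOXF2B, SNW1, DCP2 and 4 regulators (DNMT1, DNMT3B, E2F6 and MGA) were added after their values were seen. For a probe undetected in 1 group, the bound uses the lowest detected level per array.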

Additional observations from a re-analysis of the deposited data

How the results depend on the processing

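Over all probes, 449 rose and 519 fell (46.4% higher). These counts moved by more than 1.5 times without normalization (791 and 153, or 83.8% higher), with the pooled background subtracted (90 and 46) and with the replicate number as a block (194 and 145). With 1 array left out they were 176 to 239 and 131 to 216. On the wider cancer-testis list 4 rose and 2 fell. The count of higher genes became 1 with the background subtracted and 7 with trend and robust options, and was 3 to 4 with 1 array left out. The count of lower genes became 1 without normalization, 0 with the background subtracted and 1 with the replicate block, and was 1 to 2 with 1 array left out. For the X chromosome, the 13 higher genes became 1 with the background subtracted, 7 with the replicate block and 4 to 8 with 1 array left out. The 9 lower genes became 2 without normalization, 0 with the background subtracted, 2 with the replicate block and 2 to 5 with 1 array left out. The cause was not tested.

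The identifiers printed beside the labelled values reversed VCX (1.06), VCX3A (0.99) and VCX3B (1.09), by giving them other probes' values. The replicate block ended the calls of MAGEC2, RHOXF2 and TRIM69 (adjusted p = 0.081, 0.099 and 0.083 in limma) and changed no other call among the 13 named list genes. The labels do not say whether arrays with the same number are pairs, and only 2 numbers are shared. Deviations of same-numbered arrays from their group means had correlations of -0.22 and -0.09 across probes. With 2 control arrays the deviations of one mirror those of the other, so these values cannot decide whether the samples are paired. A filter for detection on all 5 arrays leaves out the brighter MAGEA1 probe, the SPANXA1 probe and the dimmer VCX3A probe. Probes near the background limit the size of the MAGEA1 and SPANX differences. Outlying arrays cannot be tested in groups of 3 and 2.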
